A study of Mus musculus with 18 samples.

Results

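Regulatory T (Treg) cells of warm brown adipose tissue (BAT) were compared with conventional T (Tconv) cells of the same tissue, on 3 arrays each, or 6 of the 18 arrays in the series. These arrays were chosen by their sample labels alone, and every probe on them that is not a control was considered. The mice are labelled Foxp3-GFP-DTR-CD90.1 on a C57BL/6 background and were kept at 30°C. The methods give female mice of 8 weeks that spent 2 weeks at this temperature. The Treg group is labelled CD4+CD25+Foxp3+ and the Tconv group CD4+Foxp3-. The methods instead name wild-type mice and a sort on CD25, so Foxp3 or CD25 chose the cells and neither could be a finding between the groups. Organs were pooled before the sort, a replicate is therefore a pool, and p-values measure the spread between pools rather than between mice. From each pool 2.5 ng of RNA was amplified before labeling.

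The other 12 arrays of the series, whose mice have the same genotype label, held Treg and Tconv cells from cold BAT (12°C for 2 days) and from spleens of the 30°C mice. They entered the fit and gave the comparison with cold BAT and spleen. All 6 warm BAT arrays lay on the same BeadChip, with Tconv cells at positions A, B and C and Treg cells at D, E and F. The cold BAT arrays and the spleen arrays each lay on another BeadChip, with the cell types at the same positions. Position on the chip and cell type therefore cannot be told apart in any of them. Neither can temperature or tissue be told apart from BeadChip.

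Treg cells are CD4+ T cells that hold back other immune cells. The transcription factor Foxp3 directs their gene program, and they carry CD25, a chain of the interleukin-2 receptor, at a high level. In fat depots Treg cells form tissue populations that differ in expressed genes from those in lymphoid organs. BAT burns fuel to make heat, and at 30°C, near the temperature at which a mouse needs little extra heat, this activity is low.

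The Illumina MouseWG-6 v2.0 BeadChip reports the mean brightness of the beads that carry a probe. The deposited table names probes by Illumina identifiers and gives 0 gene names, and no probe annotation was used here. Results are therefore given by probe, and Foxp3, CD25, T cell genes and markers of other cell types were not analysed here. On the 6 warm BAT arrays 37.8% to 42.2% of the 45267 regular probes had a detection p-value under 0.05, but so did 22.1% to 24.5% of the 936 negative control probes, so that being detected is a weak statement about a single probe. Above the 95th percentile of the negative controls lay 15.3% to 16.9% of the probes on the Tconv arrays and 16.8% to 19.2% on the Treg arrays. Signals were corrected for background, quantile-normalized and taken to log2, and all levels and differences below are on this log2 scale unless a fold is named.

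Most probes did not separate the cell types. Over the 17395 probes tested, the median difference of Treg minus Tconv was -0.03, and the middle 50% of probes lay between -0.23 and 0.15. A call required a difference of over 2-fold together with an adjusted p-value below 0.05 in a limma model of all 18 arrays with Benjamini-Hochberg adjustment. By this rule 132 probes (0.759% of those tested) differed between warm BAT Treg and Tconv cells. Higher in Treg cells were 99 probes (0.569%), and 33 (0.19%) were lower. A further 16 probes passed the adjusted p-value with a smaller difference. Without a test, 527 probes lay more than 2-fold higher and 302 lay more than 2-fold lower, which is 4.77% of those tested in all. Other processing moved this number in both directions, from 64 probes without a filter on dim probes and 70 without background correction to 158 with median scaling and 281 with array weights. The methods' t-test called 496 probes without adjustment and 1 after it.

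**Figure D1:**
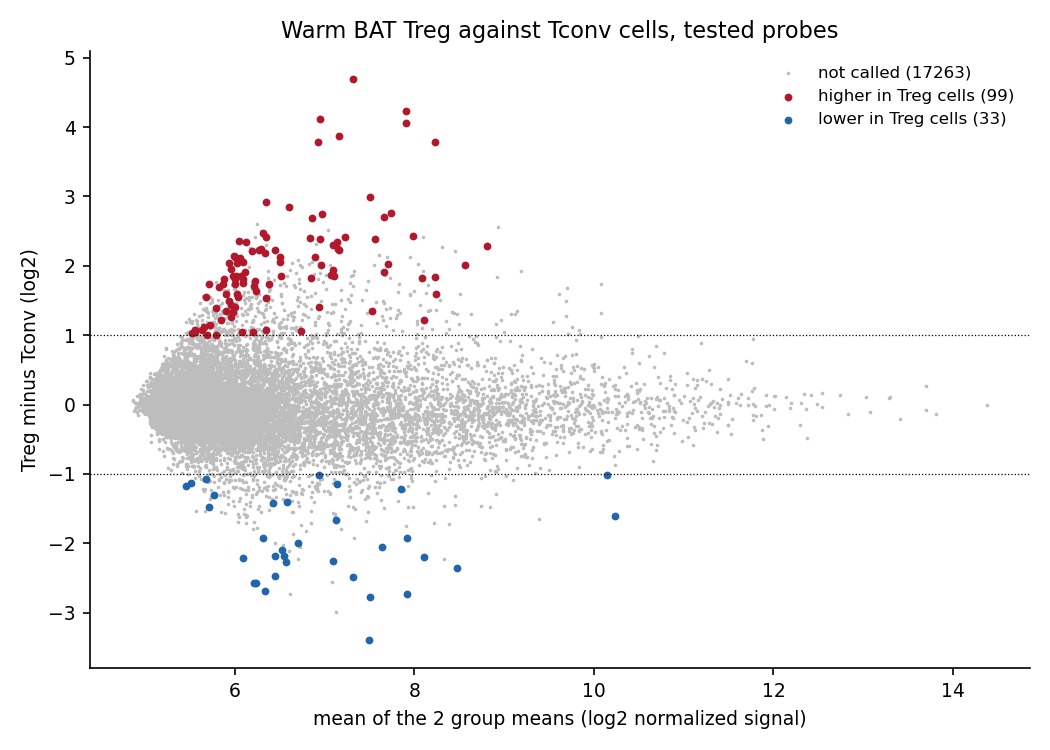
Each point is a tested probe, with the mean of the 2 group means of its log2 normalized signal on the horizontal axis and the Treg minus Tconv difference on the vertical axis. Dotted lines mark 2-fold, and the 99 probes called higher (red) reach 4.70 while the 33 called lower (blue) reach -3.39.

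The increases were larger in number and reached further than the decreases. Among the 99 higher probes the median difference was 1.87, with the middle 50% between 1.55 and 2.29 and a highest value of 4.70. Among the 33 lower probes the median was -2.05, with the middle 50% between -2.36 and -1.41 and an extreme of -3.39. More than 4-fold apart were 45 of the higher and 17 of the lower probes, and more than 8-fold apart were 7 and 1. The 3 Treg arrays and the 3 Tconv arrays did not overlap for 131 of the 132 called probes, beside 18.6% of all tested probes that did not overlap either. The exception was ILMN_1217855, whose level was 7.87 on Treg 1, above the 7.84 of Tconv 1.

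The called probes differed in how often the dimmer cell type was detected. Of the 99 higher probes, 44 were detected on all 6 arrays, 35 on 1 or 2 of the Tconv arrays and 20 on none of them. Of the 33 lower probes, 21 were detected on all 6 arrays, 5 on 1 or 2 of the Treg arrays and 7 on none of them. A probe that is not detected has only an upper limit to its level. Where no array of the dimmer group detected a probe, its fold is given as a bound, for which each of these arrays was set to the lowest signal of any probe detected on it or to the probe's own signal, whichever was higher. Every such bound, given as at least a fold below, holds only for the processing used here. The log2 difference of ILMN_2911009 was 4.70 here, but 2.96 without background correction and 3.70 with an offset of 50.

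Among the 12 probes with the largest increases, 4 were detected on every Treg array and on no Tconv array. ILMN_2911009 had levels of 8.98, 10.00 and 10.01 on Treg 1, 2 and 3 against 4.88, 4.93 and 5.09 on Tconv 1, 2 and 3. Each Treg array was far above each Tconv array, and the difference of 4.70 ± 0.74 (SE) had an adjusted p of 0.00628 in limma. Under the processing used here, the signal was at least 23.7-fold higher in Treg cells. For ILMN_2778289 the Treg arrays read 9.65, 8.81 and 8.55 and the Tconv arrays 4.86, 4.94 and 4.87. Here the Tconv arrays were almost alike and Treg 1 stood above the other Treg arrays. The difference was 4.11 ± 0.23 with an adjusted p of 7.01e-07, and the bound was at least 15.0-fold. This SE is drawn from all groups of the fit. The Tconv and spleen groups, where the probe was undetected, had SDs of 0.042 to 0.120. The warm BAT Treg arrays had an SD of 0.576, so the SE does not describe their spread. ILMN_2917180 read 8.70, 8.67 and 9.11 in Treg cells against 5.11, 4.89 and 5.12 in Tconv cells, at least 13.1-fold apart with an adjusted p of 2.86e-05. The last of the 4, ILMN_2461340, varied more within the Treg group than ILMN_2917180, with 7.84, 7.24 and 8.34 against 4.86, 4.94 and 4.85. It was at least 6.53-fold higher with an adjusted p of 8.82e-06. A limma fit of only the arrays compared gave the 4 probes adjusted p-values of 0.00384, 0.00396, 0.00247 and 0.00934 in this order. The value was lower than in the main fit for ILMN_2911009 and higher for the others.

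The other 8 of these 12 probes were detected on at least 2 Tconv arrays, so that their fold is an estimate of both levels. ILMN_2944755 had Treg levels of 9.71, 10.30 and 10.05 and Tconv levels of 5.22, 5.66 and 6.49. The Tconv arrays spread over more than 1 unit yet stayed 3.22 units below the lowest Treg array, and the signal was 18.8-fold higher (adjusted p = 0.000137). ILMN_1238505 was similar in form, with 10.51, 10.12 and 9.76 in Treg cells and 5.99, 5.49 and 7.53 in Tconv cells, of which Tconv 3 stood highest. It was 13.8-fold higher in Treg cells, with an adjusted p of 0.00422. ILMN_2635132, at 9.15, 9.37 and 8.78 against 5.24, 5.09 and 5.36, was 14.6-fold higher with an adjusted p of 2.83e-05 and was detected on 2 of the Tconv arrays.

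ILMN_2763245 showed how the shared estimate of spread enters a call. Its Treg levels of 9.94, 9.62 and 10.28 and its Tconv levels of 6.30, 5.77 and 5.57 were 3.31 units apart at their closest, but the adjusted p was only 0.0409. The standard error of 0.85 is drawn from all 6 groups, and in cold BAT Treg cells the same probe read 10.00, 9.61 and 5.32. The remaining increases were between 6.71-fold and 7.97-fold. ILMN_1237517 read 8.40, 7.66 and 8.02 against 5.16, 5.17 and 5.20, with the Tconv arrays nearly equal and close to the lowest detected signal. ILMN_1251126 read 9.18, 8.96 and 9.23 against 7.01, 5.84 and 6.26, and ILMN_2446559 read 9.03, 8.75 and 9.22 against 6.46, 5.39 and 6.17. In both, the Treg arrays lay close together and the Tconv arrays spread over more than 1 unit. ILMN_1219017 was lowest on Treg 1, with 7.52, 8.51 and 8.99 against 5.67, 5.90 and 5.22. Their adjusted p-values were 0.0044, 0.0013, 0.0221 and 0.0245 in this order.

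**Figure D2:**
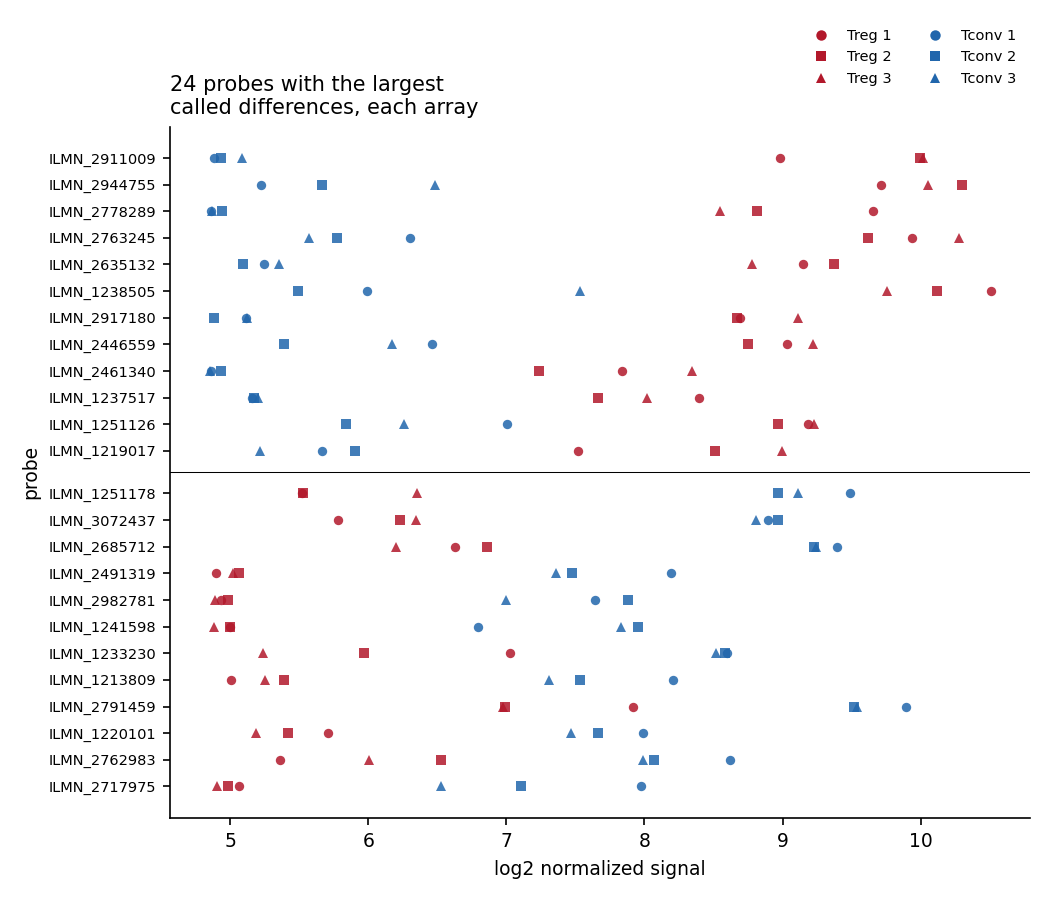
The log2 normalized signal (horizontal axis) of the 12 probes with the largest called increases (above the line) and the 12 with the largest called decreases (below it) is shown on every warm BAT array, with Treg arrays in red, Tconv arrays in blue and the marker's shape giving the replicate. In no row do red and blue markers overlap, and the gap between them is between 1.46 and 3.89 units.

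Among the 12 probes with the largest decreases, 4 were detected on every Tconv array and on no Treg array. ILMN_2491319 read 8.19, 7.48 and 7.36 in Tconv cells and 4.90, 5.06 and 5.02 in Treg cells, with Tconv 1 the highest, and was at least 6.03-fold lower in Treg cells (adjusted p = 0.000356). ILMN_2982781 read 7.64, 7.88 and 7.00 against 4.93, 4.98 and 4.89, with Tconv 3 the lowest of its group, and was at least 5.35-fold lower (adjusted p = 7.06e-05). For ILMN_1241598 it was Tconv 1 that stood below the others, at 6.79 beside 7.96 and 7.83, while the Treg arrays read 5.00, 5.00 and 4.88. This probe was at least 5.43-fold lower in Treg cells, with an adjusted p of 0.00192. ILMN_2717975 covered the widest range within Tconv cells of the 4, from 6.53 on Tconv 3 through 7.11 on Tconv 2 to 7.97 on Tconv 1. Its Treg arrays read 5.07, 4.98 and 4.91, and it was at least 4.34-fold lower (adjusted p = 0.00194). A limma fit of only the arrays compared gave the 4 probes higher adjusted p-values, of 0.00822, 0.00944, 0.0216 and 0.0384 in this order.

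The largest decrease among the called probes was found for a probe detected on every array of both cell types. ILMN_1251178 read 9.49, 8.97 and 9.11 in Tconv cells and 5.52, 5.53 and 6.35 in Treg cells, a difference of -3.39 ± 0.33 (SE) or 10.5-fold with an adjusted p of 8.76e-05. All Tconv arrays lay at least 2.62 units above all Treg arrays. ILMN_3072437 read 8.90, 8.96 and 8.81 against 5.78, 6.23 and 6.35, and ILMN_2685712 read 9.39, 9.23 and 9.24 against 6.63, 6.86 and 6.20. Both were tightly grouped in Tconv cells and lay 6.82-fold and 6.60-fold lower in Treg cells, with adjusted p-values of 0.0126 and 0.00563.

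ILMN_1233230 had the widest spread among Treg arrays of these 12 decreases. Its Tconv arrays agreed closely at 8.59, 8.59 and 8.52, whereas its Treg arrays read 7.02, 5.97 and 5.24, highest on Treg 1 (5.61-fold lower, adjusted p = 0.0189). ILMN_2791459 was likewise highest on Treg 1, with 7.92, 6.99 and 6.98 against 9.90, 9.52 and 9.54, and was 5.12-fold lower with an adjusted p of 0.00693. ILMN_2762983 was instead lowest on Treg 1, with 5.36, 6.53 and 6.01 against 8.62, 8.07 and 7.99 in Tconv cells (4.79-fold, adjusted p = 0.0448). No common order of the Treg arrays was thus seen among the decreases. ILMN_1213809 and ILMN_1220101 were highest on Tconv 1, reading 8.21, 7.53 and 7.31 and 7.99, 7.67 and 7.47 there, against 5.01, 5.39 and 5.25 and 5.71, 5.42 and 5.19 in Treg cells. They were 5.53-fold and 4.83-fold lower, with adjusted p-values of 0.00181 and 0.00637.

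The arrays of a group were not equally alike. Over all tested probes the correlation between Tconv arrays was 0.913 to 0.927 and that between Treg arrays 0.861 to 0.917, with Treg 1 the array that stood apart from Treg 2 and Treg 3. Between the cell types it was 0.815 to 0.883, so that both correlations of Treg 1 within its group, 0.868 and 0.861, fell inside the range between groups. Treg 2 and Treg 3 correlated more with every Tconv array, at 0.875 to 0.883, than with Treg 1. These correlations are across probes, which are not independent replicates. The mean of the 99 higher probes was 7.78, 7.48 and 7.51 on the 3 Treg arrays and 5.67, 5.60 and 5.45 on the 3 Tconv arrays. These probes were called on the same arrays by a test that favors a small spread, so the closeness is partly built in. For 52 of the 99 probes Treg 1 was the highest Treg array, for 18 it was Treg 2 and for 29 Treg 3. The mean of the 33 lower probes was 6.05, 6.08 and 5.93 on the Treg arrays and 8.00, 8.03 and 7.83 on the Tconv arrays, with the same limit. The spread among Treg arrays was a median SD of 0.387 for the 99 higher probes, beside 0.228 over all tested probes. Among Tconv arrays the same 99 probes had a median SD of 0.216, beside 0.220 over all.

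The number of called probes fell with any array missing. With each warm BAT array left out in turn, 66 to 100 probes were called in place of 132. Without Treg 1, the array that stood apart, 95 probes were called, of which 73 were among the 132. The counts fell by more than 1.5 times without Treg 3 (83 probes), Tconv 2 (66) and Tconv 3 (66). Called in all 6 of these fits were 49 of the 132 probes, 35 higher and 14 lower, and they included 18 of the 24 probes named above. The other 6 were ILMN_2763245 and ILMN_2762983, which lost the call whichever of the 6 arrays was left out, ILMN_1219017, which kept it only without Treg 1, ILMN_1233230, which kept it only without Treg 1 as well, ILMN_2446559, which kept it only without Tconv 1, and ILMN_3072437, which lost it without Tconv 2, Tconv 3 or Treg 1. Their highest adjusted p-values in limma with an array left out were 0.17, 0.187, 0.126, 0.0872, 0.128 and 0.0609, and no direction changed.

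**Figure D3:**
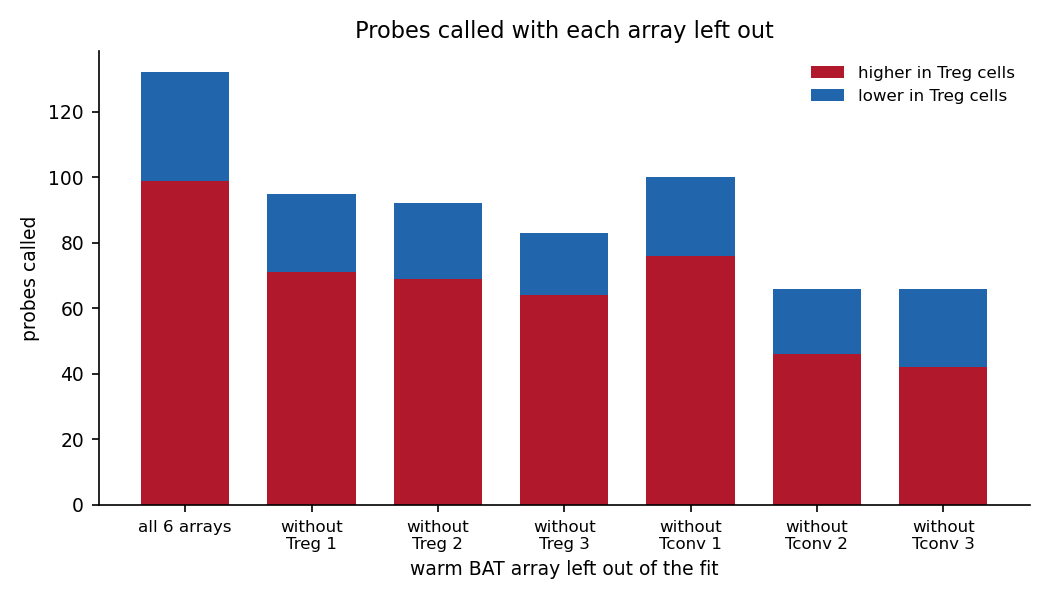
Bars give the number of probes called higher (red) and lower (blue) in Treg cells with all 6 warm BAT arrays and with each left out of the fit. The total is 132 with all arrays and between 66 and 100 otherwise.

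Bright probes were called more often than dim ones. Tested probes were split into 3 classes of equal size by their mean level over all arrays, cold BAT and spleen included. Of the dim class 0.241% were called, of the middle class 0.811% and of the bright class 1.22%. Increases and decreases differed in where they lay. The dim class held 9 higher and 5 lower probes, the middle class 45 and 2, and the bright class 45 and 26. The median standard error rose over the same classes, from 0.185 through 0.296 to 0.421.

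Detection on all arrays of a cell type and on none of the other is a measure that does not depend on the fit. Seen in Treg cells alone were 254 of 45267 regular probes (0.561%), and 135 (0.298%) were seen in Tconv cells alone. Among the 936 negative controls the same happened for 1 probe (0.107%) and 2 probes (0.214%). Of the 254 probes 20 (7.87%) were also called and 60 differed more than 2-fold, and of the 135 probes 7 (5.19%) were called and 11 differed more than 2-fold. Over all tested probes and both directions, 0.759% were called and 4.77% differed more than 2-fold. The same arrays give the detection pattern and the call, so a larger share is partly built in. With a detection p-value under 0.01 in place of 0.05 the counts were 234 and 128, with 2 and 0 negative controls.

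Each value on an array rests on a median of 39 or 40 beads. The standard error among beads of a called probe was 4.63% of its raw signal in the median for the 99 higher probes and 4.55% for the 33 lower ones. The spread between replicate arrays includes this bead error. Both were compared on the log2 scale of the raw signal, before background correction and normalization. The spread between arrays therefore also includes differences in brightness of whole arrays. Their raw medians were 127.4 to 145.6 for Tconv cells and 124.3 to 136.4 for Treg cells. Over all tested probes the median SD between arrays of a group was 0.156 against a bead standard error of 0.0731. The SD exceeded the bead error for 89.4% of them. The 24 named probes had medians of 0.246 and 0.0659.

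The next question was whether the difference between the cell types in warm BAT was also present in BAT of mice exposed to 12°C. In cold BAT 1.59% of the tested probes were called. Of the 99 higher probes, 63 were called higher in cold BAT, beside 1.25% of all tested probes, and 97 lay on the same side of 0, beside 39.8% of all tested probes. Of the 33 lower probes, 22 were called lower, beside 0.339%, and 32 lay on the same side, beside 60.2%. The median difference was 1.68 in cold BAT for the first list and -1.90 for the second. Both lists were chosen by their warm BAT differences, so smaller ones in cold BAT are partly built in. The cell types had the same BeadChip positions in cold BAT, so this agreement cannot separate cell type from position. The 36 higher probes that were not called in cold BAT had differences there between -0.20 and 2.70, and 18 of them exceeded 2-fold. The 11 lower probes that were not called in cold BAT had differences there between -0.83 and 1.03, with a median of -0.43, and 0 of them exceeded 2-fold in the same direction.

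A direct test found no probe whose difference changed with temperature. In the limma interaction of warm and cold BAT 0 probes (0%) were called, the smallest adjusted p was 0.101, and 687 probes (3.95%) had an unadjusted p under 0.05. This does not show that the differences were the same. For the 99 higher probes the 95% interval of the difference between warm and cold had a median half-width of 0.98, and for the 33 lower probes of 0.91, so that a change of less than about 1 unit mostly fell within the interval. The count was 8 without cold BAT Treg 3, 1 without cold BAT Treg 1, warm BAT Tconv 1 or warm BAT Treg 2, and 6 when arrays were scaled to a common median. The smallest adjusted p among the 132 probes, 0.101, belonged to ILMN_2501026, which was -1.42 in warm BAT and 1.03 in cold BAT. Only 2 other called probes had opposite signs, ILMN_1232642 with 1.08 and -0.08 and ILMN_2712507 with 1.07 and -0.20.

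Of the 24 probes named above 21 were also called in cold BAT, beside 1.59% of all tested probes. ILMN_2778289 read 9.26, 9.33 and 8.67 in cold BAT Treg cells and 4.82, 5.05 and 4.91 in Tconv cells, a difference of 4.16 beside 4.11 in warm BAT. ILMN_2944755 read 9.64, 9.71 and 9.92 against 5.59, 5.57 and 6.02, and ILMN_1251178 read 5.99, 6.17 and 5.27 against 8.72, 8.73 and 8.74. In these 3 probes the cold arrays were separated in the same direction as the warm ones. The probes of the 24 that were not called in cold BAT were ILMN_2763245 (2.70, adjusted p = 0.14), ILMN_1219017 (1.86, adjusted p = 0.102) and ILMN_2762983 (-0.53, adjusted p = 0.679). In the first of them a single array, cold Treg 3, lay with the Tconv arrays, as given above.

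In spleen the differences of the 132 probes called in warm BAT were smaller. The choice of probes by their warm BAT differences makes smaller ones elsewhere partly built in. The spleen arrays were also weaker, with 27.8% to 35.1% of the probes detected and 8.93% to 13.3% above the 95th percentile of the negative controls. Their housekeeping probes had a median raw intensity of 201.1 to 431.6, against 868 to 1813 on the warm BAT arrays, and the part of this in the smaller differences was not tested. The cell types differed by a median of 0.06 in spleen over the 99 higher probes and by -0.40 over the 33 lower ones. In spleen 0.931% of the tested probes were called. Among them were 12 of the 99, beside 0.592% of all tested probes, and 6 of the 33, beside 0.339%. On the same side of 0 lay 62 of the 99, beside 50.8%, and 26 of the 33, beside 49.2%. Many of the higher probes could not be measured in spleen, since 30 of the 99 were detected on none of the 6 spleen arrays and only 30 on all 3 arrays of a spleen group. All 12 probes called in spleen were among the latter 30. A probe can be detected there through the cell type in which it is high, so no summary of these 30 is given. Of the 33 lower probes 21 were detected on all 3 arrays of a spleen group and 3 on no spleen array. In a bulk sample fewer expressing cells and less RNA per cell cannot be told apart.

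Called in the same direction in warm BAT, cold BAT and spleen were 11 of the 99 and 5 of the 33 probes. Of the 24 named probes, 7 belonged to them. ILMN_2911009 differed by 4.70, 3.99 and 4.31 in warm BAT, cold BAT and spleen, ILMN_2635132 by 3.87, 3.81 and 3.56, and ILMN_2446559 by 2.99, 2.87 and 3.15. ILMN_2917180 and ILMN_1251126 also rose in each, and ILMN_2717975 and ILMN_1251178 fell in each. For ILMN_1251178 the difference was -3.39, -2.92 and -1.76. The limma interaction of warm BAT and spleen did not pass for any of the 7, with adjusted p-values between 0.268 and 0.972. This does not show equal differences, since the 7 were chosen by calls in the same direction in both tissues.

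**Figure D4:**
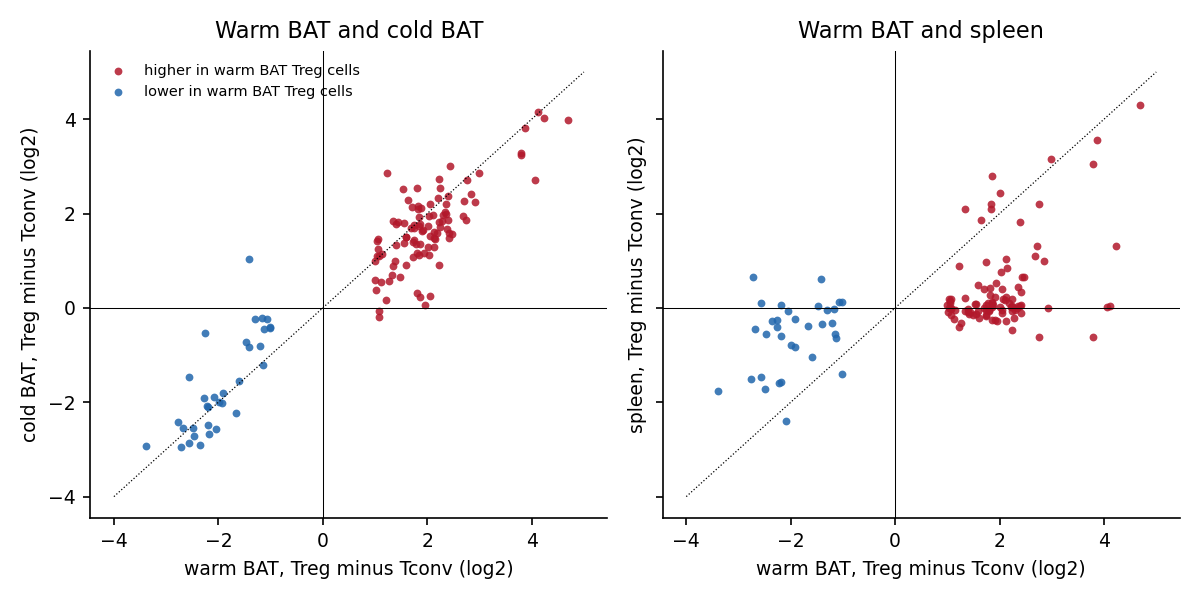
Each point is one of the 132 probes called in warm BAT, with its Treg minus Tconv log2 difference in warm BAT on the horizontal axis and that in cold BAT (left) or spleen (right) on the vertical axis, and the dotted line marks equal differences. In cold BAT 97 of the 99 higher probes (red) lie above 0, and in spleen their median is 0.06, with 30 of the 99 detected on no spleen array.

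The Treg minus Tconv difference, taken with its sign, was higher in warm BAT than in spleen for 17 probes and lower for 16. These 33 probes (0.19%, with 0.0977% higher and 0.092% lower) passed the limma interaction. In it, a log2 shift shared by both cell types of a BeadChip cancels. A BeadChip effect on the size of a difference does not. Warm BAT and spleen lay on different BeadChips, so tissue and BeadChip cannot be told apart. A lower value can mean cell types further apart in warm BAT, as for ILMN_2685712 (-2.72, against 0.65 in spleen). A higher value can mean cell types further apart in spleen, as for ILMN_2723881 (1.20, against -2.96 in spleen). Of the 99 higher probes 12 were among the 17, and of the 33 lower probes 4 were among the 16. The same warm BAT arrays enter the interaction and chose these probes, so the overlap is partly built in. The other 17 probes of the 33 were not called in warm BAT. The count of 33 depended on single arrays. It was 14 without warm BAT Treg 1 or Tconv 3, 17 without warm BAT Tconv 1, 20 without spleen Tconv 2, 21 without warm BAT Treg 2 and 133 without spleen Tconv 1.

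For ILMN_2778289 the difference was set against levels that were not detected. Its spleen Treg arrays read 4.94, 4.85 and 4.78 and its spleen Tconv arrays 4.77, 4.79 and 4.87, none of them detected, while the warm BAT Treg arrays read 8.55 to 9.65. The fitted interaction of 4.07 had an adjusted p of 6.91e-05 and was called with each warm BAT or spleen array left out in turn. A limma fit of only the arrays compared gave it an adjusted p of 0.00132. Since neither spleen group was detected, no size of the spleen difference is known and the fitted value is not a measured size. ILMN_2461340, also undetected on all spleen arrays, had a fitted interaction of 2.92 with an adjusted p of 0.000807. ILMN_2982781 was the counterpart among the decreases. It was undetected on all spleen arrays, at 4.79 to 4.98, and had a fitted interaction of -2.68 with an adjusted p of 0.00393. The same limit holds for both.

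Other probes of this kind were detected on at least 1 spleen array. ILMN_1238505 read 5.21, 5.99 and 5.53 in spleen Treg cells and 6.14, 6.30 and 6.16 in spleen Tconv cells, a small difference of the opposite sign, and its interaction of 4.41 had an adjusted p of 0.0412 that rose as far as 0.111 with an array left out. ILMN_2685712 was high in Tconv cells of BAT but not of spleen, where the Tconv arrays read 5.05, 4.83 and 4.80 and the Treg arrays 6.87, 4.93 and 4.82, and its interaction of -3.37 had an adjusted p of 0.038 that rose as far as 0.102. ILMN_2723881 differed mainly in spleen, where it read 5.08, 5.11 and 5.90 in Treg cells and 7.92, 8.17 and 8.87 in Tconv cells, whereas in warm BAT it read 7.67, 7.74 and 8.25 against 7.13, 7.00 and 5.91 and was not called. Its interaction of 4.17 had an adjusted p of 0.0142, which stayed at or under 0.0381 with an array left out and was 0.0967 with the replicate number as a block. ILMN_1250816 and ILMN_2473531 did the same in the other direction. In spleen they read 8.41, 8.42 and 8.69 against 5.31, 4.93 and 4.92, and 9.01, 9.41 and 7.85 against 6.81, 5.11 and 5.40, while in warm BAT their Treg and Tconv arrays overlapped.

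Probes on either side of the threshold were not far apart. The last called by adjusted p was ILMN_2865016, with a difference of 2.47 and an adjusted p of 0.0483, and the first that was not called was ILMN_2614759, with 1.90 and 0.0506. More than 2-fold apart and without overlap between the arrays, yet not called, were 317 probes on the higher and 197 on the lower side. For a single probe, 3 arrays against 3 allow no two-sided p below 0.1 in an exact permutation test.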

How the data were processed

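RNA from sorted Treg and Tconv cells was hybridized by the authors to 18 Illumina MouseWG-6 v2.0 arrays. They deposited mean bead intensities with neither normalization nor background subtraction, a detection p-value, the bead spread and the bead number for each array. The calculation of the detection p-value is not given in the sources used here. Of 108 such columns 60 were not used. Columns were matched to samples by their headers.

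The neqc function of limma 3.58.1 (R 4.3.3) was applied to 45267 regular probes with 936 negative controls, which corrected the background, used an offset of 16 and quantile normalization, and gave log2 signals. The 34 other controls were left out. Tested were 17395 probes, those detected (p-value under 0.05) on every array of any group. All 18 arrays were fitted with 6 group means (12 residual degrees of freedom), p-values were adjusted by Benjamini-Hochberg across all 17395 probes, and differences between tissues were interactions in this fit. For these arrays the study's text names no normalization, and its general statistics section gives a two-tailed t-test, used here as an alternative. The number of arrays limits the precision. On simulated data for the comparison of warm BAT Treg and Tconv cells, run on 17395 probes, 165 of 200 changed probes were called in the true direction together with 4 unchanged ones. Every planted change was larger than the 2-fold minimum of a call, and the simulated noise was independent between probes. The share called is therefore not a recovery rate for the real data.

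Named are, among called probes whose arrays do not overlap, 12 with the greatest increase and 12 with the greatest decrease, and 3 per direction for each interaction, together with probes given as exceptions, near the threshold or for the interaction with spleen, which were chosen after their values were seen. The rules, comparisons and alternatives were chosen with earlier results of these data known. Gene lists and cell type markers were planned but not analysed, since no probe annotation was used here. Python 3.11.15 with matplotlib 3.10.9 drew the figures.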

Additional observations from a re-analysis of the deposited data

Results flagged for a closer look

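The difference between Treg and Tconv cells was itself different in warm BAT and in spleen for 33 probes, by the limma interaction with more than 2-fold and an adjusted p under 0.05. Taken with its sign, as Treg minus Tconv, it was higher in warm BAT by 4.41 for ILMN_1238505, by 4.17 for ILMN_2723881 (adjusted p = 0.0142) and by 4.07 for ILMN_2778289. It was lower in warm BAT than in spleen for ILMN_1250816, with an interaction of -3.98 (adjusted p = 0.0145), for ILMN_2473531, with -3.54 (adjusted p = 0.0412), and for ILMN_2685712, with -3.37. With each of the 12 warm BAT and spleen arrays left out in turn, ILMN_2723881 and ILMN_2778289 stayed called in all 12 fits, whereas ILMN_1250816 lost the call in 1, ILMN_2685712 in 8 and ILMN_1238505 and ILMN_2473531 in 10 each. With the replicate number as a block, ILMN_2778289 (adjusted p = 0.0203) and ILMN_1250816 (0.0287) kept the call, and ILMN_2723881 (0.0967), ILMN_1238505 (0.154), ILMN_2473531 (0.0807) and ILMN_2685712 (0.0757) lost it. ILMN_2778289 was not detected on any spleen array, so its fitted value is not a measured size.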

How the results depend on the processing

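Against the 132 probes called between warm BAT Treg and Tconv cells (75% higher), 70 were called without background correction, 64 without a filter on dim probes and 281 with array weights. The methods' t-test called 496 at its unadjusted threshold and 1 with Benjamini-Hochberg adjusted values. Median scaling called 158 and moved the share of higher probes to 85.4%. The cause of these shifts was not tested. Only the arrays compared gave 148 probes, of which 70 were among the 132, and the other alternatives gave 107 to 154. With 1 array left out the count was 66 to 100. Replicate numbers are shared between the groups, but the deviations of same-numbered arrays correlated at 0.19, 0.059 and 0.075, so the numbers were not taken as pairs, although 6 of 6 arrays correlated best with their own number. The replicate block gave 113 probes (89 higher and 24 lower), 88 of them among the 132, and of the 24 named probes ILMN_1219017 (adjusted p = 0.109) and ILMN_2762983 (0.13) lost their call. For warm against cold BAT the interaction called 6 probes with median scaling, 1 with array weights and 0 to 8 with 1 array left out, the highest number without cold BAT Treg 3, against 0. For warm BAT against spleen, where the main fit called 33, the interaction called 19 with median scaling (78.9% higher in warm BAT, against 51.5%). It called 16 without a filter (68.8%), 10 with the replicate block (80%) and 18 with array weights. With only the arrays compared it called 40 (75%), and with 1 array left out 14 to 133. Leaving out each cold BAT or spleen array was added after the data were seen. Over 15 alternatives other than the t-test, 17 of the 24 named probes kept their call, 7 lost it in some, and none reversed. The largest shift of the median of all tested probes between scalings was from -0.03 to 0.02. Many probes lay near the negative controls, and the part of this in the number of calls was not tested.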
